A study of Rattus norvegicus with 12 samples.

Results

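The circadian clock genes Per1, Per2, Cry1, Cry2, Bmal1 and Clock, with Nr1d1, Dbp, Usp2 and Nfil3, were followed in the livers of newborn rats. They are 10 of the 13327 genes named on the Illumina RatRef-12 Expression BeadChip, an array whose beads carry gene probes, and were picked by gene symbol. Each had 1 probe. The livers came from male Wistar pups culled 1 day after birth, and 4 pups were sampled for each of 3 maternal diets fed in pregnancy. MLP-F dams received a low protein diet with extra folic acid, MLP dams the same low protein level at the control amount of folic acid, and C dams the control diet. A single litter was studied per diet, so the pups of a group were littermates. Diet and litter cannot be told apart, and p-values measure only the spread among pups. No group received extra folic acid on the control protein level. At which hour of the day the livers were taken is stated neither in the labels nor in the methods, so the phase of any rhythm is unknown.

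The mammalian clock is a loop of transcription and repression that runs in most cells, the hepatocyte included. The proteins CLOCK and BMAL1 pair up and switch on genes that carry E-box sequences, among them Per1, Per2, Cry1, Cry2, Nr1d1 and Dbp. The PER and CRY proteins then shut off their own activator, while REV-ERB alpha, the product of Nr1d1, represses Bmal1. Dbp, an activator, and Nfil3, a repressor, compete for D-box sequences, and Usp2 encodes a deubiquitinating enzyme whose transcript cycles in many tissues. In adult liver the loop times much of metabolism, and in rats its rhythm in the liver takes shape after birth.

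Sequences of the region before the annotated start of transcription are shown for 4 of the genes, since these short motifs are where the clock proteins bind. RefSeq windows of assembly GRCr8 matched 9 of the 10 genes, Cry1 being the other one, with 11 windows in all, and the 250 bases before each start were searched on both strands. The motifs were the E-box CACGTG, its variant CACGTT, the D-box TTATGTAA or TTACGTAA, the core AGGTCA bound by ROR and REV-ERB proteins, and the cyclic AMP element TGACGTCA. They were found in 5.59%, 4.07%, 0.932%, 14.1% and 1.59% of the 33469 windows of all genes, and no matches overlapped in the genes shown. Capitals mark the matches, and every sequence runs 5′ to 3′ along its gene. The window of Per2 (chr9:99496994-99497243, minus strand) held a D-box 192 to 185 bases and a CACGTT 62 to 57 bases before the start. Those of Bmal1 (chr1:176766078-176766327, plus strand) and Usp2 (chr8:53310620-53310869, plus strand) held an AGGTCA. An Nr1d1 window (chr10:84229455-84229704, minus strand) held the E-box. The starts used for Usp2 and for this Nr1d1 window lie 2606 and 2358 bases inside their genes.
Per2: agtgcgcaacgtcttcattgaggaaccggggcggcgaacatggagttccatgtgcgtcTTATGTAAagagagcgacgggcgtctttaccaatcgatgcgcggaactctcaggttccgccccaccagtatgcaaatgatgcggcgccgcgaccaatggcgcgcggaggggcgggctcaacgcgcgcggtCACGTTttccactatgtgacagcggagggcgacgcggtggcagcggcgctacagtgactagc
Bmal1: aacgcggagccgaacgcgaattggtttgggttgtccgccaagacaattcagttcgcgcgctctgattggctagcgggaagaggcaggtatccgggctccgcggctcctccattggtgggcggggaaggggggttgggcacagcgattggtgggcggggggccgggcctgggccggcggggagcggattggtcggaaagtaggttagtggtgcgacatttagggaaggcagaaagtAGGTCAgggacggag
Usp2: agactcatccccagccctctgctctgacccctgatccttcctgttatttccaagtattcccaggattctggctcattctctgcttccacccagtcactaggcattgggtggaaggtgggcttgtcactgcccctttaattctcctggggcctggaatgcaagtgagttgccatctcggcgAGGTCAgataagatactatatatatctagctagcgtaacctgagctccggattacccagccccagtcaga
Nr1d1: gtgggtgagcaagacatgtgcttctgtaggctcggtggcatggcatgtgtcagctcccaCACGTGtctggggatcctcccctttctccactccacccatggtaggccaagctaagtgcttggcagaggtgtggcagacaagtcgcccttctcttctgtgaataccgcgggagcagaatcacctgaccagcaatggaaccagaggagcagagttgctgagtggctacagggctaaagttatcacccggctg
Among the rest, the other Nr1d1 window and that of Cry2 held AACGTG, the reverse complement of CACGTT. The windows of Per1, Clock, Dbp and Nfil3 held no match. That of Per1 lies before a start placed 5374 bases inside the gene, so it does not cover the region before the gene's first annotated base. A match is a string of letters and not a measured binding site.

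Expression values are given on a re-expanded log2 scale. The deposited log2 values spanned less than 1 unit, up to 4.63, and were read as log2 of 16 plus a value already on a log2 scale. Each was therefore turned into 2 to the power of the value, minus 16, which gave a range of 0.047 to 8.82. If this reading holds, a difference is close to a log2 ratio of intensities, with dim probes changing less on it than their transcripts. Tests compared 15753 probes with limma, and a probe with a Benjamini-Hochberg adjusted p under 0.05 is called changed. Between littermates samples correlated across probes with r = 0.980 to 0.990 in MLP-F, 0.990 to 0.993 in MLP and 0.977 to 0.989 in C. The sample most like MLP-F replicate 2 was not a littermate but C replicate 2 (r = 0.993).

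Of 8 hepatocyte markers 6 were on the array, and most of these bore out the labelled tissue. The median over the 6 was 7.99 to 8.24 in MLP-F, 8.17 to 8.20 in MLP and 8.04 to 8.15 in C. Tat was far dimmer than the rest and averaged 1.35 in MLP-F, 2.42 in MLP and 1.58 in C. A pair of C livers carried transcripts of other tissues. In C replicate 4 the median of 7 skeletal muscle markers was 4.91 and that of 4 lung markers 2.84. In C replicate 1 the median of 3 keratinocyte markers was 3.49. The median of 7 stellate cell and fibroblast markers was 4.62 there, but stellate cells belong to the liver, so this list does not by itself show another tissue. Summed over their probes, stellate cell and fibroblast markers stood at 11.1 to 16.2 in MLP-F, 9.92 to 11.5 in MLP and 10.8 to 35.4 in C. Erythroid markers (5 of 6 on the array) summed to 13.6 to 14.8 in MLP-F, 15.95 to 18.5 in MLP and 14.97 to 16.6 in C. The erythroid genes did not move together. Hbe1, an embryonic globin gene, averaged 0.55 in MLP-F, 3.83 in MLP and 1.38 in C. Ahsp, the hemoglobin chaperone gene, averaged 7.95 in MLP-F, 7.50 in MLP and 8.01 in C. Every MLP liver lay below every C liver in Ahsp, as in 6.06% of all probes. Macrophage markers (5 of 7) summed to 12.3 to 13.98 in MLP-F, 12.9 to 15.5 in MLP and 12.01 to 13.2 in C. No listed marker was at 0, but the lowest value of any probe was 0.047, so this does not show that a marker was expressed. The part of these markers in the results on clock genes was not tested, and in whole tissue a change in the number of cells of a type cannot be told apart from a change in RNA per cell. Results that lost their call without C replicates 1 and 4 are named where they stand.

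Between MLP and C livers, 5 of the 9 clock genes that could be tested were higher in MLP and 0 were lower. They were the repressors Per1, Per2 and Cry1, the activator Bmal1 and the deubiquitinase gene Usp2, with differences of 0.32 to 1.57. Of all probes tested 2.27% were called higher and 2.08% lower in MLP, 4.35% in all. The median difference over the 9 genes was 0.32, against 0.0037 over all probes. In each of these 5 genes the 4 MLP livers lay above the 4 C livers, which held for 6.18% of all probes. The clock genes, and the partner and output lists below, were chosen with earlier results of these data known. Shares set beside those of all probes therefore describe these genes and do not test them as a set. Dbp, Nr1d1, Clock and Nfil3 were not called. The remaining gene, Cry2, was too dim to enter the test.

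**Figure D1:**
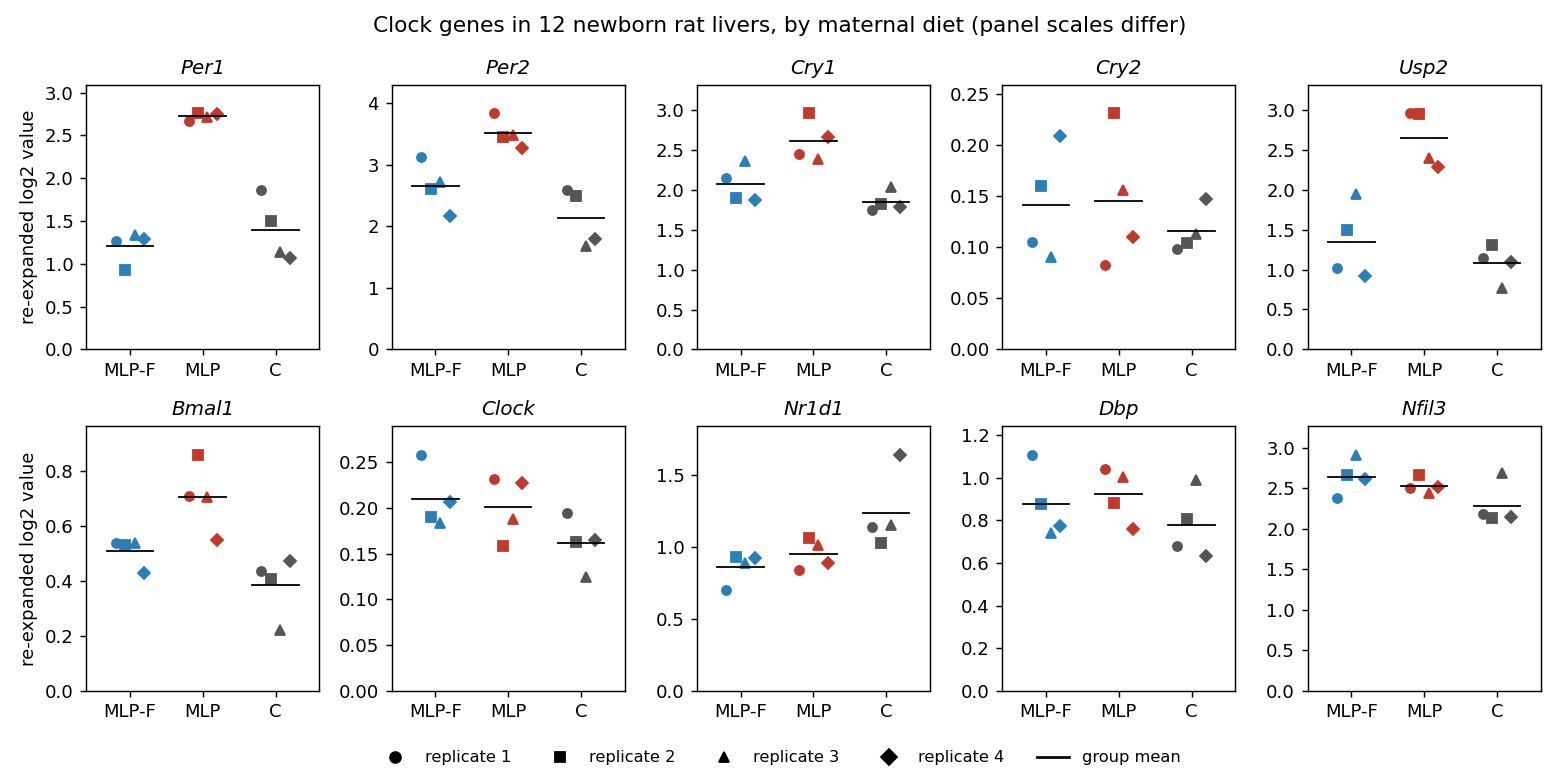
Re-expanded log2 value (vertical axis, unitless log2 scale from 0, different in each panel) of the 10 clock genes in each MLP-F, MLP and C liver, with symbols for replicates 1 to 4 and a bar for the group mean. The 4 MLP livers lie above all C and all MLP-F livers in Per1, Per2, Cry1, Usp2 and Bmal1, and the groups overlap in Clock, Dbp and Nfil3.

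Per1, a repressor of the loop that also responds quickly to outside signals, stood at 2.66, 2.76, 2.72 and 2.76 in MLP livers, against 1.87, 1.50, 1.14 and 1.06 in C livers. The MLP livers lay close together, while C livers ranged widely, with replicates 1 and 2 above replicates 3 and 4. Per1 averaged 2.72 ± 0.044 in MLP and 1.39 ± 0.37 in C (SD, n = 4 each), a rise of 1.33 (SE 0.15, adjusted p = 0.00221). Per2, its partner in the repressor complex, stood at 3.83, 3.44, 3.48 and 3.27 in MLP livers, against 2.59, 2.49, 1.68 and 1.78 in C livers. C replicates 1 and 2 were again the higher ones of their group and still lay below every MLP liver. The rise was 1.37 (SE 0.24, adjusted p = 0.0110). Without C replicates 1 and 4 both genes kept their call, with differences of 1.40 (adjusted p = 0.00194) and 1.42 (adjusted p = 0.0450).

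Cry1, the cryptochrome that holds CLOCK and BMAL1 in the repressed state, stood at 2.45, 2.96, 2.39 and 2.66 in MLP livers, against 1.74, 1.82, 2.03 and 1.78 in C livers. Here C replicate 3 was the highest of its group, the liver in which Per2 was lowest. The rise was 0.77 (SE 0.14, adjusted p = 0.0111), and it was 0.69 and no longer called without C replicates 1 and 4 (adjusted p = 0.0997). The related cryptochrome Cry2 had values of 0.090 to 0.21 in MLP-F, 0.082 to 0.23 in MLP and 0.098 to 0.15 in C. Its mean over the 12 livers lay under the 30th percentile of all probes, at which the filter was set. In a fit of all probes the 95% interval of its MLP minus C difference was -0.050 to 0.11 (adjusted p = 0.835), and at this level a probe says little about its transcript.

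Usp2, a rhythmic deubiquitinase gene, showed the largest difference of the 10 genes. It stood at 2.96, 2.95, 2.40 and 2.28 in MLP livers, against 1.15, 1.30, 0.77 and 1.10 in C livers, so that the lowest MLP liver was well above the highest C liver. It averaged 2.65 ± 0.36 in MLP and 1.08 ± 0.22 in C (SD, n = 4 each), a rise of 1.57 (SE 0.23, adjusted p = 0.00595), which kept its call without C replicates 1 and 4 (1.61, adjusted p = 0.0440).

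On the activator side, Bmal1 stood at 0.71, 0.86, 0.71 and 0.55 in MLP livers, against 0.43, 0.41, 0.22 and 0.47 in C livers. The groups did not overlap, but MLP replicate 4 came close to C replicate 4. The rise was 0.32 (SE 0.070, adjusted p = 0.0262), the smallest of the 5. Bmal1 is the gene of this group whose call was least stable: it was lost in 6 of the 12 fits that each left out a liver, with adjusted p of up to 0.0699 without MLP replicate 2, and without C replicates 1 and 4 (0.39, adjusted p = 0.0623). Its partner Clock was dim, at 0.16 to 0.23 in MLP and 0.12 to 0.20 in C, with a difference of 0.040 (95% interval -0.035 to 0.11, adjusted p = 0.630).

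Nr1d1, whose product represses Bmal1, stood at 0.84, 1.06, 1.01 and 0.89 in MLP livers, against 1.13, 1.02, 1.15 and 1.64 in C livers. Only MLP replicate 2, at 1.06, exceeded a C liver, replicate 2 at 1.02, and C replicate 4 was far above the rest. The difference was -0.29 (SE 0.12, 95% interval -0.55 to -0.030), and it did not pass the adjustment (adjusted p = 0.227). It was -0.15 without C replicate 4 (adjusted p = 0.350) and -0.14 without C replicates 1 and 4 (adjusted p = 0.604). Dbp, the D-box activator, stood at 1.04, 0.88, 1.00 and 0.76 in MLP livers, against 0.68, 0.81, 0.99 and 0.63 in C livers. The groups overlapped, and the 95% interval of the difference was -0.075 to 0.36 (adjusted p = 0.530), with a difference of 0.14 that was 0.024 without C replicates 1 and 4. Nfil3, which opposes Dbp, stood at 2.50, 2.67, 2.44 and 2.52 in MLP livers, against 2.18, 2.13, 2.69 and 2.15 in C livers, where replicate 3 lay above every MLP liver. The difference was 0.24 (95% interval -0.051 to 0.54, adjusted p = 0.400). It was 0.38 without C replicate 3 (adjusted p = 0.0864) and 0.12 without C replicates 1 and 4 (adjusted p = 0.871). The upper bounds for Nr1d1, Dbp and Nfil3 lay below the lower bounds for Per1 (0.99) and Per2 (0.84), though the difference between genes was not itself tested.

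In MLP-F livers 0 of the 9 genes differed from C in limma, with 2, Nr1d1 and Nfil3, at an unadjusted p under 0.05, a level that 14.9% of all probes reached. Of all probes 0.190% were called higher and 0.292% lower in MLP-F, 0.482% in all. Per1 stood at 1.27, 0.93, 1.34 and 1.29 in MLP-F livers, within the range of C except for replicate 2, and differed from C by -0.19 (95% interval -0.52 to 0.15, adjusted p = 0.628). Per2 stood at 3.13, 2.60, 2.71 and 2.17 in MLP-F livers. Its difference from C was 0.52 with an interval of -0.015 to 1.05 (adjusted p = 0.349), the widest of the clock genes, and 3 of the 4 MLP-F livers lay above every C liver. Usp2 stood at 1.02, 1.50, 1.95 and 0.92 in MLP-F livers and differed from C by 0.26 (interval -0.25 to 0.78, adjusted p = 0.650). Cry1, at 2.15, 1.90, 2.37 and 1.88 in MLP-F livers, differed from C by 0.23 (adjusted p = 0.478). Bmal1, at 0.54, 0.53, 0.54 and 0.43, had 3 MLP-F livers above every C liver and differed by 0.12 (adjusted p = 0.453). Dbp ranged from 0.74 to 1.11 and Clock from 0.18 to 0.26 in MLP-F, overlapping C in both genes, with differences of 0.098 (adjusted p = 0.707) and 0.048 (adjusted p = 0.552). Nr1d1 was the gene whose 4 MLP-F livers, at 0.70, 0.93, 0.88 and 0.92, all lay below the 4 C livers, as 3.14% of probes did, with a difference of -0.38 (SE 0.12, adjusted p = 0.159) that was -0.24 without C replicate 4 (adjusted p = 0.220). Nfil3, at 2.38 to 2.92 in MLP-F, differed from C by 0.36 (SE 0.13, adjusted p = 0.232), by 0.49 without C replicate 3 (adjusted p = 0.0903) and by 0.24 without C replicates 1 and 4 (adjusted p = 0.744). This comparison leaned on MLP-F replicate 2, without which 944 instead of 76 probes of the array were called. The count of clock genes stayed at 0 in that fit and in the other 11 fits that each left out a liver.

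Set against MLP, MLP-F livers had lower Per1, Usp2 and Cry1, 3 of the 9 genes, with 0 higher. Of all probes 3.53% were called lower and 3.05% higher in MLP-F, 6.58% in all. Both comparisons with MLP rest on the same 4 MLP livers, so the values of MLP against C and of MLP-F against MLP are not independent. Per1 fell to 1.21 ± 0.19 in MLP-F, against 2.72 ± 0.044 in MLP (SD, n = 4 each), and the difference was -1.52 (SE 0.15, adjusted p = 0.000535). Usp2 differed by -1.30 (SE 0.23, adjusted p = 0.00864) and Cry1 by -0.54 (SE 0.14, adjusted p = 0.0385). The call for Cry1 was lost in 7 of the 12 fits without a liver, with adjusted p of up to 0.109 without MLP-F replicate 4, and without C replicates 1 and 4 (adjusted p = 0.0592). Per2 differed by -0.85 (SE 0.24) and narrowly missed the threshold (adjusted p = 0.0609), although its 4 MLP-F livers lay below its 4 MLP livers. Bmal1 differed by -0.20 (SE 0.070, adjusted p = 0.127), also without overlap between the groups. In all, 5 of the 9 genes had every MLP-F liver below every MLP liver, against 6% of all probes. For Clock, Nr1d1, Dbp and Nfil3 the differences were 0.0085, -0.091, -0.047 and 0.11, each with an interval that spans 0.

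**Figure D2:**
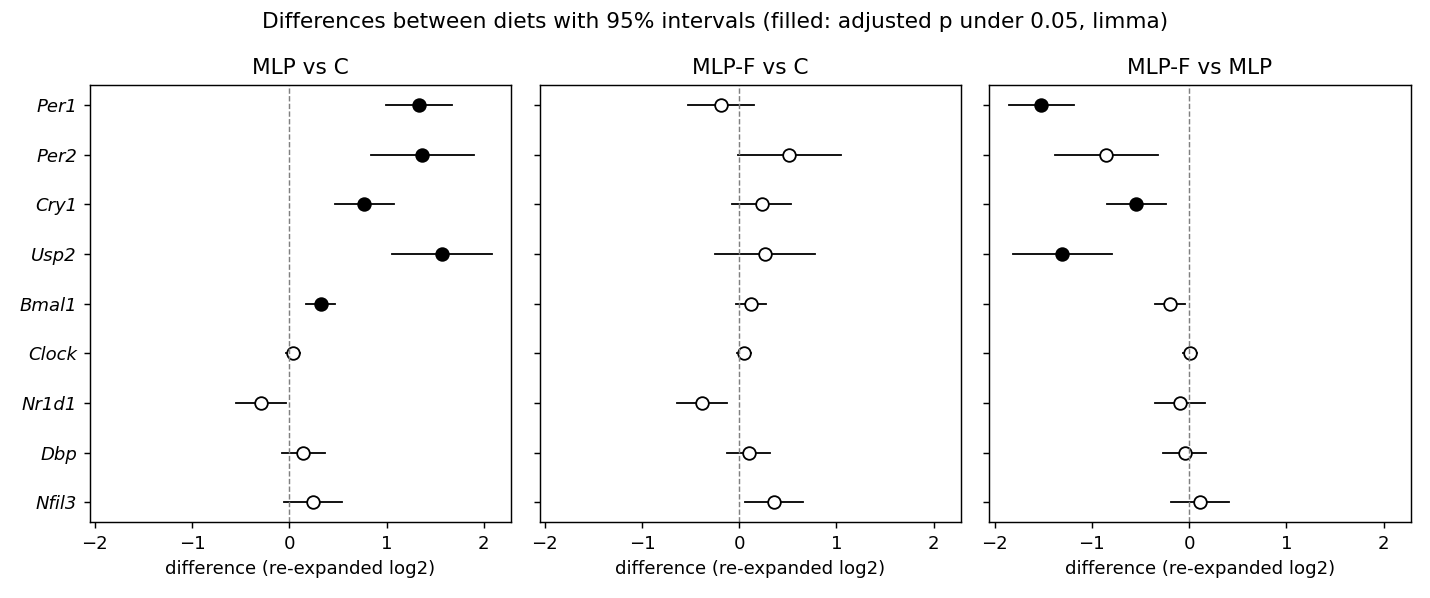
Differences between diets on the re-expanded log2 scale (horizontal axis) for the 9 tested clock genes, 1 panel per comparison, with 95% intervals from limma and filled points where the adjusted p was under 0.05. Filled points are the 5 rises in MLP and the 3 genes lower in MLP-F than in MLP, and MLP-F vs C has no filled point.

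The wider clock was followed through 20 partner genes, which take part in the loop or modify its proteins. Of these 10 were on the array with 11 probes, and 7 probes were bright enough to test. In MLP livers 1 partner, Timeless, fell and 0 rose, with a median difference of -0.0060 over the 7, where 2.08% of all probes were called lower and 4.35% in all. Timeless, named after the fly clock gene and known in mammals mainly for its work at the replication fork, stood at 2.58, 2.75, 2.84 and 2.46 in MLP livers, against 3.30, 3.24, 3.21 and 3.26 in C livers. The C livers were nearly identical, and every MLP liver was lower, as for 6.06% of all probes, with a difference of -0.60 (SE 0.091, adjusted p = 0.00670). It was not called without C replicates 1 and 4 (-0.57, adjusted p = 0.0602). In MLP-F it stood at 2.86 to 3.21 and was called neither against C (-0.26, adjusted p = 0.197) nor against MLP (0.33, adjusted p = 0.0535). Per3, the third period gene, was dim and differed by 0.018 between MLP and C (interval -0.083 to 0.12). In the main limma fit, partner probes called numbered 0 between MLP-F and C and 0 between MLP-F and MLP. An unadjusted p under 0.05 was reached by 2 and 3 of 7. Of all probes, 14.9% reached that level against C and 19.5% against MLP. Bhlhe40, whose product represses through E-boxes, stood at 1.16, 2.11, 1.89 and 1.59 in MLP-F livers, against 2.06 to 2.45 in C livers, with MLP-F replicate 2 the only one inside the C range (-0.63, SE 0.18, adjusted p = 0.138). Without MLP-F replicate 2, 1 partner probe was called in MLP-F against C, that of Bhlhe40, and 2 were called against MLP, of Bhlhe40 and the PER kinase gene Csnk1d, all lower in MLP-F. Both genes were named after their values were seen. Calls over all probes also rose in the fit without MLP-F replicate 2. They went from 76 to 944 against C and from 1037 to 1355 against MLP, so the added calls were not particular to partner genes.

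Of 21 liver outputs, genes that the clock is known to time in adult rodents, 18 were on the array and 17 were tested. In MLP livers 3 rose, Lpin1, Klf9 and Por, and 1 fell, Wee1, with a median difference of 0.23, against 0.0037 over all probes. Over all probes 2.27% were called higher and 2.08% lower. Lpin1, which encodes a phosphatidate phosphatase and transcriptional coactivator, stood at 2.23, 1.99, 1.92 and 2.43 in MLP livers, against 1.37, 0.95, 0.64 and 0.92 in C livers. The groups were well apart, with a rise of 1.17 (SE 0.15, adjusted p = 0.00315) that kept its call without C replicates 1 and 4 (1.35, adjusted p = 0.00814). Lpin1 was also the output lower in MLP-F, at 0.85, 0.98, 1.20 and 0.93, than in MLP, with a difference of -1.15 (SE 0.15, adjusted p = 0.00219). Against C it differed by 0.020 (interval -0.31 to 0.35). Between MLP-F and MLP, Lpin1 was the 1 output called of 17 in limma, where 6.58% of all probes were called. An unadjusted p under 0.05 was reached by 7 of the 17, and by 19.5% of all probes.

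Klf9, a transcription factor, stood at 3.81, 4.02, 4.37 and 4.37 in MLP livers, against 3.35, 3.16, 3.35 and 3.06 in C livers, a rise of 0.91 (SE 0.20, adjusted p = 0.0300). Its call was lost in 7 of the 12 fits without a liver (adjusted p of up to 0.0867 without MLP replicate 3). Por, the electron donor of microsomal cytochromes P450, rose by 0.74 (SE 0.14, adjusted p = 0.0146), with 5.36 to 5.78 in MLP and 4.65 to 4.96 in C. Wee1, a kinase that restrains entry into mitosis, fell to 0.89 to 1.28 in MLP livers, against 1.33 to 1.85 in C livers, a difference of -0.59 (SE 0.13, adjusted p = 0.0279), and lost its call in 5 of the 12 fits (adjusted p of up to 0.0853 without MLP replicate 2). Klf9, Por and Wee1 were not called without C replicates 1 and 4 (adjusted p = 0.156, 0.127 and 0.0574). Fgf21, a fasting hormone of the liver, had all MLP livers (0.19 to 0.46) below all C livers (0.55 to 1.78), as had 6.06% of all probes. It was not called (-0.88, SE 0.38, adjusted p = 0.258). Output probes called between MLP-F and C numbered 0 of 17 in limma, with 1 at an unadjusted p under 0.05, where over all probes 0.482% were called and 14.9% reached that unadjusted level.

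**Figure D3:**
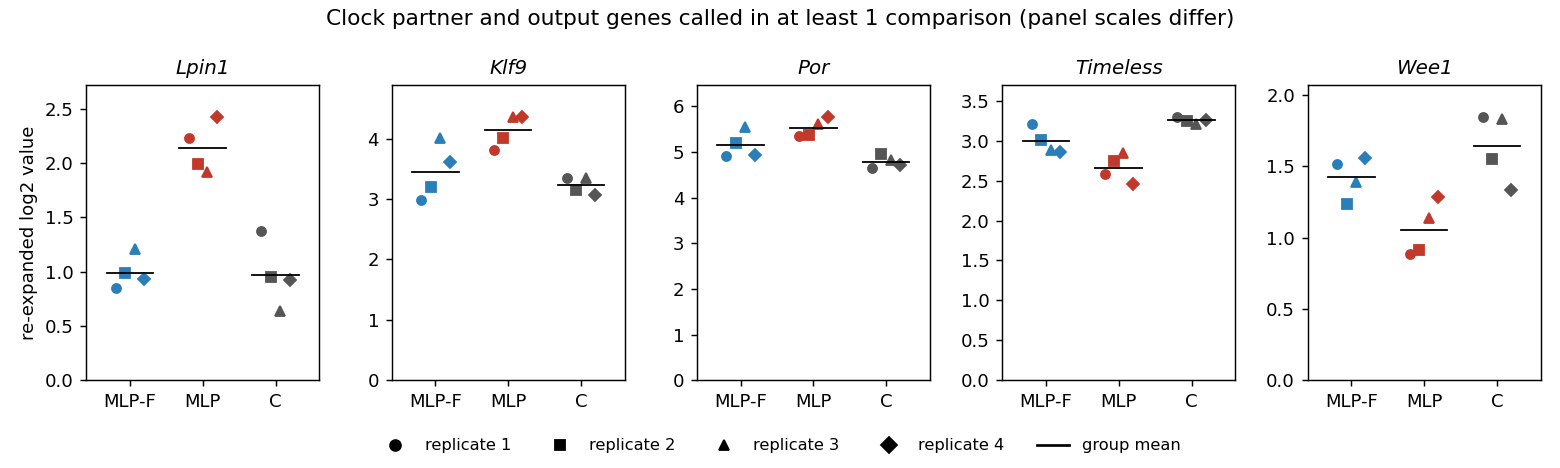
Re-expanded log2 value (vertical axis from 0, different in each panel) of the 5 partner and output genes called in at least 1 comparison, in each MLP-F, MLP and C liver, with symbols for replicates and a bar for the group mean. Lpin1, Klf9 and Por lie higher and Timeless and Wee1 lower in the 4 MLP livers than in the 4 C livers.

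The named genes whose profile over the 12 livers lay closest to that of a called clock gene were found by the mean absolute gap between both genes' deviations from their own means, among 10543 named probes. For Per1 the closest was Lpin1, at a mean gap of 0.19, followed by Tsku (0.22) and Abcg1 (0.26). For Usp2 they were Adhfe1 (0.23), Tsku (0.24) and Ethe1 (0.26), and for Per2 Zmynd12 (0.26), Smim3 (0.28) and Tsku (0.28). Tsku, which encodes a secreted leucine-rich protein, thus came up for 3 of the 5 genes, with 0.55 to 0.92 in MLP-F, 1.59 to 2.30 in MLP and 0.51 to 0.75 in C. The gaps are not scaled, so a rise in MLP of like size is enough to bring genes close. Tsku rose by 1.48 over C, and Per1, Per2 and Usp2 by 1.33, 1.37 and 1.57. Shared regulation was not tested. Cry1 was closest to Rpusd3 (0.11), Ovca2 (0.11) and Gcdh (0.12). Bmal1 was closest to Rnf19b (0.065), Rpl41 (0.065) and Cyfip1 (0.071), and its own small range makes such small gaps easy to reach.

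The stability of the rises in MLP over C differed between the genes. Per1, Per2, Cry1 and Usp2 were called in each of the 12 fits that left out a liver, with differences of 1.22 to 1.49 for Per1, 1.22 to 1.52 for Per2, 0.66 to 0.85 for Cry1 and 1.47 to 1.69 for Usp2. The highest adjusted p of these fits was 0.0103 for Per1, 0.0333 for Per2 and 0.0215 for Usp2, each without MLP replicate 2, and 0.0363 for Cry1 without MLP replicate 4. Without C replicates 1 and 4, which leaves fewer C livers, 3 of the 5 genes were called, and these were Per1, Per2 and Usp2.

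**Figure D4:**
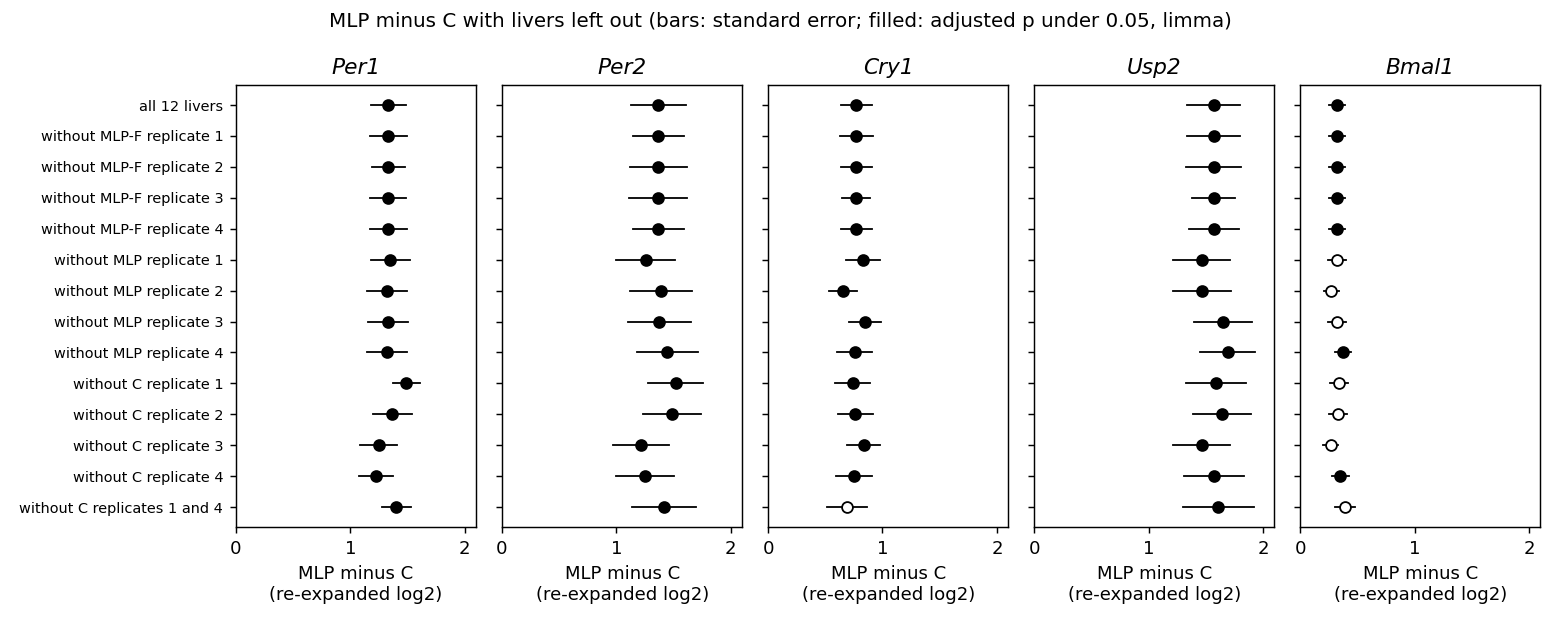
MLP minus C difference on the re-expanded log2 scale (horizontal axis, bars of 1 standard error) of the 5 genes called in MLP, with all 12 livers, without each liver in turn and without C replicates 1 and 4, with filled points where the adjusted p from limma was under 0.05. Points of Per1, Per2 and Usp2 are filled throughout, Cry1 is open in the fit without C replicates 1 and 4, and Bmal1 is open in 7 of the fits.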

How the data were processed

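Liver RNA of 12 newborn rats was hybridised to Illumina bead arrays. The authors used beadarray and limma, with quantile normalization, and deposited log2 values of 22505 probes, with a median of 4.02 in each sample. Their background correction and their probe filter are not given in the sources used here. Reading the values as log2 of 16 plus a log2 value comes from the values alone, so the exact scale stays uncertain, whereas direction does not. A second deposited table has 12 columns named by chip position, which match no label and were not used. Arrays have no read depth. The 4 livers per group limit the precision.

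Probes with a mean at or under the 30th percentile (0.158) were left out, which kept 15753. Symbols came from the platform annotation, checked through Entrez identifiers (GRCr8 gene table; 13778 probes named, 8727 not). All 12 samples entered a single fit in limma 3.58.1 (R 4.3.3; lmFit, contrasts.fit, eBayes) with 9 residual and 2.26 prior degrees of freedom, two-sided, with Benjamini-Hochberg adjustment over every probe kept. This model was also run on simulated arrays with known changes. Their noise was drawn independently for each probe and sample, so they hold no litter effect and no transcripts of other tissues. The clock genes and lists were chosen with earlier results of these data known. Text names all clock genes, listed partner and output genes called in any comparison or without overlap between MLP and C, and the 3 closest profiles of each called clock gene. The partners Per3, Bhlhe40 and Csnk1d are named outside this rule. Alternatives were the deposited scale, other filters, an intensity trend, array weights, only the groups compared, renewed quantile normalization, a replicate block and left-out livers.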

Additional observations from a re-analysis of the deposited data

Results flagged for a closer look

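Of 45 sets of 4 littermate values examined, 3 for each of the 10 clock genes and the 5 called partner and output genes, 3 had a sample far from the others, a rate near the 1 in 20 that chance gives. Per1 in MLP-F replicate 2 stood at 0.93, with its littermates at 1.27 to 1.34. Bmal1 in MLP-F replicate 4 stood at 0.43, with its littermates at 0.53 to 0.54. Nfil3 in C replicate 3 stood at 2.69, with its littermates at 2.13 to 2.18.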

How the results depend on the processing

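Called clock genes in MLP vs C (5) stayed within 4 to 5 without 1 liver, partners at 1, outputs (4) at 2 to 4 and all probes (685) at 335 to 814. Without C replicates 1 and 4, where fewer livers remain, they numbered 3, 0, 1 and 213. With only both groups in the fit Bmal1 was not called (adjusted p = 0.0521). In MLP-F vs C 0 clock genes and 0 outputs were called whichever liver was left out, and 0 to 1 partners. All probes called there (76) numbered 37 with no filter, 6 with only both groups in the fit, 14 without C replicates 1 and 4, and 1 (without MLP-F replicate 3) to 944 (without MLP-F replicate 2) without 1 liver. In MLP-F vs MLP, clock genes called (3) ranged from 2 to 4, partners (0) from 0 to 2, outputs (1) from 1 to 3 and all probes (1037) from 623 to 1355 without 1 liver. With a filter at the 50th percentile 2 partners and 2 outputs were called, next to 1210 of all probes, though fewer probes were kept. With an intensity trend 1 partner and 2 outputs were called, next to 1024 of all probes. Per2 was called in MLP-F vs MLP with the filter at the 50th percentile (adjusted p = 0.0370), the trend (0.0418) and only both groups (0.0405). It was also called without C replicate 1 (0.0476), C replicate 3 (0.0490) or MLP-F replicate 1 (0.0461). Cry1 lost its call there with no filter (adjusted p = 0.0637) and with only both groups (0.0722). Differences near 0 changed sign for Dbp in MLP-F vs C without C replicates 1 and 4 (-0.022), and for Clock in MLP-F vs MLP, which ranged from -0.0077 (without MLP-F replicate 1) to 0.019 (without MLP replicate 1) and was -0.0059 without MLP replicate 2. Causes were not tested.

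Replicate numbers are shared between the groups, and over all kept probes they showed no pairing of the livers. Deviations of same-numbered samples from their group means correlated at -0.217 to 0.143 in 12 pairs, and those of other numbers at -0.304 to 0.302. With the number as a replicate block, called probes were 562 in MLP vs C, 29 in MLP-F vs C and 912 in MLP-F vs MLP, with 5, 0 and 3 clock genes and 3, 0 and 2 outputs. Per2 passed in MLP-F vs MLP under the block (adjusted p = 0.0147) and Cry1 did not (adjusted p = 0.0793). For Per2 the block lowered the SE of the MLP minus C difference from 0.24 to 0.14. A correlation over all probes cannot show whether a few genes follow the replicate number, and this was not tested.

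A litter per diet, an unknown hour of sampling, an inferred scale and dim probes for Cry2, Clock and Per3 limit these comparisons, and an array gives no read depth to weigh a value by.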
